A study of Mus musculus with 14 samples.

Results

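The genes described here are 10 ERK feedback and output genes, taken by symbol from a table of 35275 genes: Dusp4, Dusp5, Dusp6, Spry1, Spry2, Spry4, Spred1, Spred2, Etv4 and Etv5. The mRNA of murine ovarian cancer cells was sequenced in 5 lines, with 14 samples in all, each grown for 5 days as tumorspheres, which are free-floating clusters of cells, in serum-free PromoCell medium. KMF cells (n = 3) were recovered after passage of ID8 cells through C57Bl6 mice and carry gains that include Myc and the FAK gene Ptk2. FAK KO cells (n = 3) are KT13, a single KMF clone in which Ptk2 was disrupted with CRISPR/Cas9. The other 3 lines were made from KT13, so that they share its disrupted Ptk2 and its origin in 1 cell. FAK-WT cells (n = 3) re-express FAK as a GFP fusion from a lentivirus. FAK-R454 cells (n = 2) express the same fusion with a kinase-inactivating point mutation, so that the scaffold is present without its catalytic activity. β-catenin ΔGSK cells (n = 3) express, from a retrovirus, a β-catenin that lacks the sites phosphorylated by GSK3 and so escapes degradation. All transduced lines were drug selected and enriched by flow cytometry, and drift of a clone or of a selected population cannot be told apart from the effect of the gene introduced.

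ERK is the last kinase of the cascade that runs from receptors through Ras, Raf and MEK. Active ERK induces its own brakes. Dusp4, Dusp5 and Dusp6 encode phosphatases that remove phosphate from ERK, the first pair in the nucleus and Dusp6 in the cytoplasm. The Sprouty proteins (Spry1, Spry2, Spry4) and the related Spred proteins (Spred1, Spred2) act at the membrane and limit Ras or Raf activation. Etv4 and Etv5 encode ETS transcription factors of the PEA3 group, which rise with fibroblast growth factor and ERK signalling and whose mRNA is often read, with Dusp6 and Sprouty mRNA, as a measure of ERK output. FAK, when active, can bind Grb2 and feed into the same cascade.

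Libraries held from 25390558 to 35289859 fragments assigned to genes, and every sample correlated better with its own line (mean r from 0.989 to 0.996 across genes) than with any sample of another line (at most 0.985). FAK-WT replicate 3 had the lowest value within its line. Ptk2 mRNA was 19.0 ± 1.45 FPKM (fragments per kilobase of gene, scaled to library size) in FAK KO (SD, n = 3), 24.3 ± 0.421 in KMF (n = 3), 43.4 ± 1.76 in FAK-WT (n = 3), 62.4 ± 4.42 in FAK-R454 (n = 2) and 15.5 ± 0.401 in β-catenin ΔGSK cells (n = 3), counted over the whole gene, so that edited and introduced copies are not separated. Ctnnb1, which encodes β-catenin, was higher in β-catenin ΔGSK than in FAK KO cells (log2 fold change 0.57, standard error 0.060, limma adjusted p = 6.8e-05). Of 7 epithelial and mesothelial markers, 6 were above 1 FPKM in each line, and Krt7 was at most 0.420. Of the other cell types, Ptprc was at most 0.00759 FPKM, Cd3e was at 0 in each sample, and Kdr and Cdh5 were at most 0.0432. Other genes on these marker lists were present, with Dcn at 29.6 to 125.4 FPKM over the 14 samples, Tek at 6.29 to 28.8, Cd68 at 1.05 to 12.3, Pdgfra at 0.765 to 11.7 and Pecam1 at 0.168 to 1.27. In bulk mRNA, fewer cells of a type and less RNA per cell cannot be told apart.

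Lines were compared on log2(FPKM + 0.1), a scale that understates changes of low genes, with limma over all genes that averaged more than 1 FPKM in either line. A gene is called where its Benjamini-Hochberg adjusted p over all of these genes was under 0.05. The 10 genes passed the filter in each comparison. They were abundant to moderate, with means over the 14 samples from 5.94 FPKM for Spry4 to 73.7 FPKM for Dusp4, a level per length. The lowest of the 140 values, Spry1 in β-catenin ΔGSK replicate 1, rests on 173 fragments. None of the 10 overlaps another gene of the table.

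The stretches below, from RefSeq on GRCm38.p6, lie just before the starts of 4 genes on which the results turn, and each ends before the gene as the deposited table places it. Promoter windows of 300 bases, from 250 before to 50 after a start, were found for 7 of the 10 genes (8 windows, since Etv5 has 2). In Dusp5 the capitals mark 2 CArG boxes, the sequence bound by serum response factor, which works with ERK-phosphorylated ETS partners. In the other 3 the capitals mark GGAA on either strand, the core read by ETS factors, present in 96.0% of all 32851 windows.
Dusp5, chr19:53528895-53529108, plus strand: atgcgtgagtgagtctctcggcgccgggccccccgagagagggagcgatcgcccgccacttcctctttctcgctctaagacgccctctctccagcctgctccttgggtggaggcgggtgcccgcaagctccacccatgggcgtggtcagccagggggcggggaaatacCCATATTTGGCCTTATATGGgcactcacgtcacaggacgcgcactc
Spry1, chr3:37639697-37639946, plus strand: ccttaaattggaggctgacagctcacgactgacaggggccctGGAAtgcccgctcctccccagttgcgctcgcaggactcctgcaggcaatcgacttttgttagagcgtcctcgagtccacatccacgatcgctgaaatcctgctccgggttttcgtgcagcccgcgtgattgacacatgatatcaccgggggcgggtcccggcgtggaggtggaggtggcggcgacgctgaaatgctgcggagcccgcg
Dusp6, chr10:99262981-99263230, plus strand: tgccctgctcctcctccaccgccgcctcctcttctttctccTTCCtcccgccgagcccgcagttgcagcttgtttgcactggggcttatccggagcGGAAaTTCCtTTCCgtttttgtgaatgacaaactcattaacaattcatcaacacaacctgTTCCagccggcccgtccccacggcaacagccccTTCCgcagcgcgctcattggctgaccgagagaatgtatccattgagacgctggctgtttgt
Etv5, chr16:22439720-22439820, minus strand: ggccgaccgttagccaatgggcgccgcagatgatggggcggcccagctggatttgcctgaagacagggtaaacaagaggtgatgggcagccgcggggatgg
The first bases of the 2 CArG boxes lie 82 and 72 bases before the RefSeq start of Dusp5, and the boxes do not overlap. A CArG box was present in 1.63% of all windows and in no other window of the 10 genes. This motif and GGAA were added after the sequences had been read. Dusp6 held 6 copies of GGAA in its 300-base window, Spry1 held 1 and the Etv5 window shown held 0, while its other window, at chr16:22438319-22438618, held 6, against a median of 3 over all windows. The longer motifs searched on both strands were the ETS site CCGGAAGT, the AP-1 site TGANTCA, the TCF/LEF site CTTTGAT and the CRE TGACGTCA, of which the ETS site contains GGAA. They were present in 3.89%, 7.81%, 3.73% and 1.79% of all windows and in none of the 8. The missing letters say nothing about binding elsewhere in these genes.

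**Figure D1:**
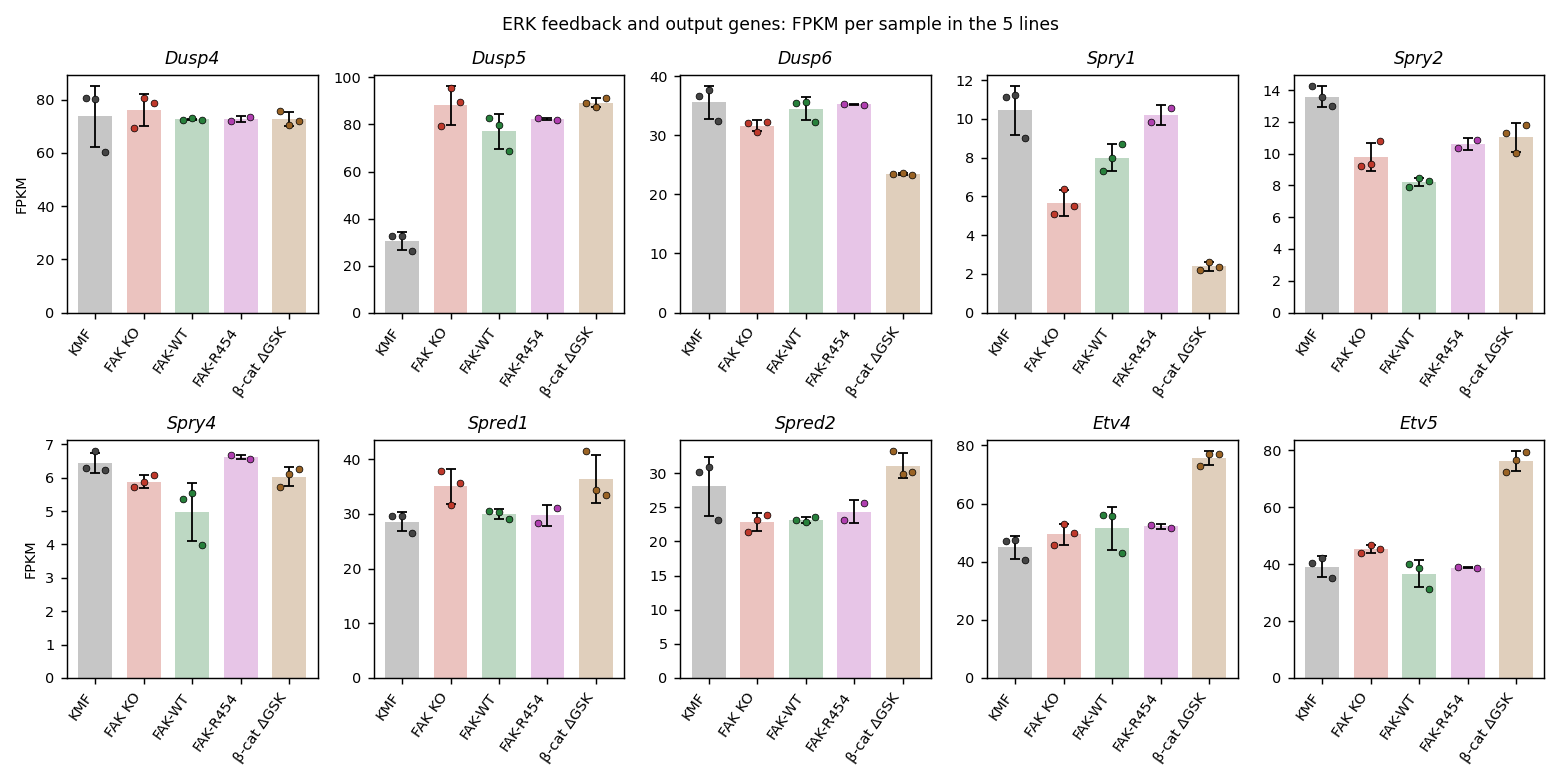
FPKM of each of the 10 genes (panels, y axis from 0) in the 5 lines (x axis). Points are samples, bars are means and error bars are the SD (n = 3, but n = 2 for FAK-R454). Spry1 falls from 10.4 in KMF to 2.38 in β-catenin ΔGSK cells, Dusp5 is low in KMF cells alone, Etv4 and Etv5 are highest in β-catenin ΔGSK cells, and the means of Dusp4 stay between 72.6 and 76.2.

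The comparison of β-catenin ΔGSK with FAK KO cells asks what stabilised β-catenin changes in cells without FAK, and it split the ERK readout genes into both directions. Etv5, Etv4 and Spred2 rose, and Spry1 and Dusp6 fell. These 5 of the 10 genes were called (3 higher, 2 lower), where 58.1% of all 11915 genes tested were called (23.7% higher, 34.4% lower), and the same 5 did not overlap between the lines, as did not 64.2% of all genes. The share called in either direction and the share without overlap were no larger than for genes at large. The median log2 fold change was 0.044 over the 10 genes and -0.089 over all genes tested. Each of the 5 calls was made in all 16 alternatives that keep the rule of adjusted p under 0.05 at any fold, leaving out any single sample included, and with a log2 fold change of at least 1 also required, 1 (Spry1) was left.

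Etv5 (ENSMUSG00000013089, chr16:22381309-22439719, minus strand) was 72.4, 76.8 and 79.4 FPKM in the 3 β-catenin ΔGSK samples and 43.9, 46.8 and 45.3 FPKM in FAK KO. The lines did not overlap, and the rise was 1.68-fold on the FPKM + 0.1 scale (log2 fold change 0.75, standard error 0.063, limma adjusted p = 1.82e-05). Its partner Etv4 (ENSMUSG00000017724, chr11:101769742-101785371, minus strand) was 73.0, 76.9 and 77.1 FPKM against 45.7, 52.8 and 49.95 FPKM in FAK KO. Again every β-catenin ΔGSK sample was higher (log2 fold change 0.61, standard error 0.070, limma adjusted p = 0.000113). The sum of both PEA3 mRNAs was 151.9 ± 5.81 FPKM in β-catenin ΔGSK and 94.8 ± 5.06 FPKM in FAK KO cells (SD, n = 3 each). Etv5 made up 50.2% ± 0.504 of that sum for β-catenin ΔGSK, 47.8% ± 1.05 for FAK KO, 46.5% ± 0.351 for KMF and 41.6% ± 0.523 for FAK-WT cells (SD, n = 3 per line), and 42.7% ± 0.293 for FAK-R454 (n = 2).

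In the order of levels, Etv4 was highest in β-catenin ΔGSK cells and passed the test against the next line, FAK-R454 (log2 difference 0.54, limma adjusted p = 0.000235). Below it FAK-R454 (52.1 FPKM), FAK-WT (51.5), FAK KO (49.5) and KMF (45.0) formed a run in which no neighbours differed beyond their spread. Etv5 followed the same top rank, with FAK KO (45.3 FPKM) second and KMF (39.2), FAK-R454 (38.8) and FAK-WT (36.7) below. Among these last 3 no neighbours differed.

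Spry1 (ENSMUSG00000037211, chr3:37639947-37644598, plus strand), which encodes a membrane inhibitor of receptor signalling, moved opposite to the PEA3 genes. It was 2.20, 2.63 and 2.33 FPKM in β-catenin ΔGSK and 5.07, 6.38 and 5.50 FPKM in FAK KO. All 3 β-catenin ΔGSK samples were lower, by 1.21 on the log2 scale as fitted (log2 fold change -1.21, standard error 0.12, limma adjusted p = 4.56e-05). This was the only one of the 10 genes past a log2 fold change of 1 in size there, as were 12.1% of all genes tested. Dusp6 (ENSMUSG00000019960, chr10:99263231-99267488, plus strand), the cytoplasmic ERK phosphatase, was 23.5, 23.6 and 23.2 FPKM against 32.1, 30.5 and 32.2 FPKM in FAK KO. In these lines its samples varied little and did not overlap (log2 fold change -0.43, standard error 0.060, limma adjusted p = 0.000374).

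Spred2 (ENSMUSG00000045671, chr11:19924375-20024026, plus strand), a Spred protein that holds back Ras activation, was 33.2, 29.9 and 30.2 FPKM in β-catenin ΔGSK against 21.4, 23.2 and 23.9 FPKM in FAK KO. It rose with no overlap (log2 fold change 0.44, standard error 0.074, limma adjusted p = 0.00099). The relatives of these genes did not pass. Spred1 had a log2 fold change of 0.053 (limma adjusted p = 0.669), Spry2 of 0.17 (0.146), Spry4 of 0.034 (0.732), Dusp4 of -0.066 (0.458) and Dusp5 of 0.023 (0.813). With every chromosome centred on the median of its genes, Spry4 was called higher (0.43, adjusted p = 0.00736), as the median of the 296 other genes tested on chromosome 18 was -0.38. With median-of-ratios scaling of the FPKM, Spry2 was called higher (0.25, adjusted p = 0.0425), as it was with the replicate block (0.17, adjusted p = 0.0495).

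Across the 14 samples Spry1 and Dusp6 correlated with r = 0.95 and Etv4 and Etv5 with r = 0.91, while Spry1 and Etv5 gave r = -0.92 and Dusp6 and Etv5 gave r = -0.89. These are descriptions over samples that cluster by line, share their processing and owe their range mainly to the 3 β-catenin ΔGSK samples. The heat map of all samples against the FAK KO mean shows the same split. The summed level of 4 fibroblast markers also moved between these lines, from 89.1 to 125.1 FPKM in FAK KO and from 30.5 to 45.0 FPKM in β-catenin ΔGSK cells. Most of it was Dcn, Pdgfra averaged 0.815 FPKM with β-catenin ΔGSK against 3.03 FPKM without, and Lum and Thy1 were at most 0.0370 FPKM in any sample. Of the 4 endothelial markers, whose sum was 17.8 to 19.2 FPKM in FAK KO and 6.55 to 7.42 FPKM in β-catenin ΔGSK cells, Tek carried the level. Leukocyte markers summed to 2.85 to 3.18 FPKM in FAK KO and 1.09 to 1.91 FPKM in β-catenin ΔGSK cells, with Cd68 averaging 2.99 and 1.32 FPKM. The part of all these markers in the results was not tested.

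**Figure D2:**
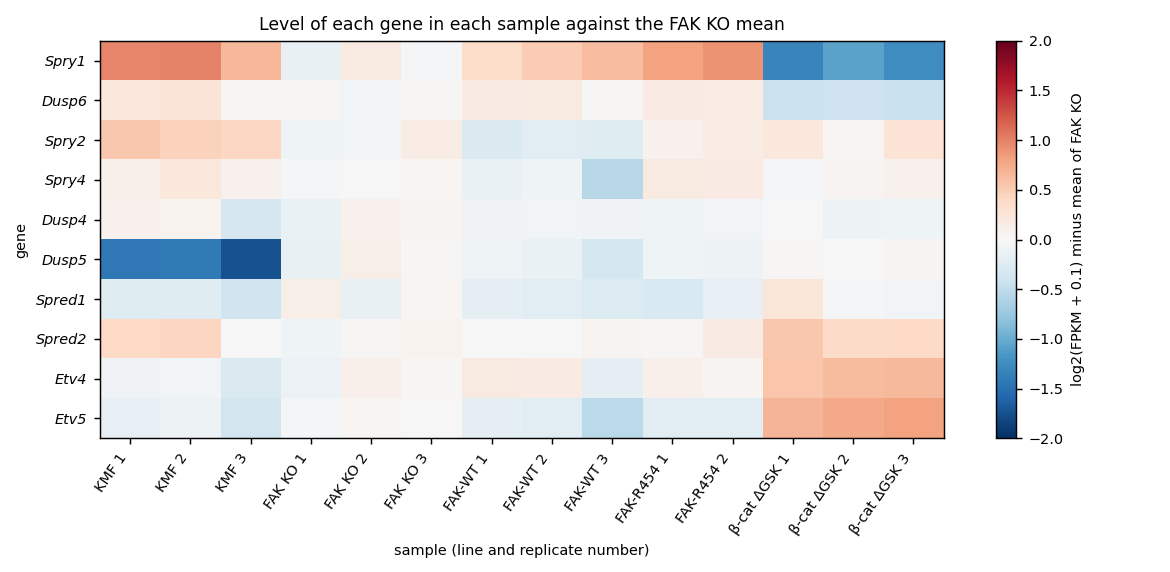
Level of each gene (rows) in each of the 14 samples (columns), as log2(FPKM + 0.1) minus the mean of the 3 FAK KO samples, with red higher and blue lower. In the 3 β-catenin ΔGSK columns Spry1 and Dusp6 are blue while Etv4, Etv5 and Spred2 are red, and Dusp5 is dark blue in the 3 KMF columns, with a mean difference of -1.54.

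After re-expression of FAK in FAK KO cells Spry1 was higher, and 6 of the other genes did not pass the test, of which Dusp6 was called higher with median-of-ratios scaling (0.20, adjusted p = 0.0304). Spry1 was 7.29, 7.99 and 8.69 FPKM in FAK-WT cells, above each FAK KO sample (log2 fold change 0.50, standard error 0.11, limma adjusted p = 0.0081). This call was made in all 16 alternatives at any fold, and not where a log2 fold change of at least 1 was also required. In all, 4 of the 10 genes were called (1 higher, 3 lower), where 40.8% of all 11841 genes tested were called (15.6% higher, 25.2% lower). None of the 10 reached a log2 fold change of 1 (0, against 4.62% of all genes tested), and 5 did not overlap between the lines (56.1% of all). Of the leukocyte markers, whose sum was 6.63 to 12.3 FPKM in FAK-WT and 2.85 to 3.18 FPKM in FAK KO, Cd68 alone exceeded 1 FPKM. The fibroblast marker Pdgfra averaged 10.3 FPKM in FAK-WT and 3.03 FPKM in FAK KO. Epithelial and mesothelial markers summed to 1569 to 1809 FPKM in FAK-WT and 1068 to 1250 FPKM in FAK KO. Among them Krt8 averaged 569 against 317 FPKM and Krt18 377 against 218 FPKM. The part of these markers was not tested. The median log2 fold change was -0.13 over the 10 genes and -0.076 over all genes tested.

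Lower levels after FAK re-expression were called for 3 genes, which changed by small amounts. Etv5 was 40.0, 38.7 and 31.3 FPKM in FAK-WT, below the 3 FAK KO samples (log2 fold change -0.31, limma adjusted p = 0.0297). Spry2 (ENSMUSG00000022114, chr14:105891949-105896819, minus strand), another Sprouty, was 7.93, 8.45 and 8.25 FPKM in FAK-WT against 9.22, 9.34 and 10.8 FPKM in FAK KO (-0.25, limma adjusted p = 0.0407). Spred1 (ENSMUSG00000027351, chr2:117121374-117182279, plus strand), a Ras inhibitor like Spred2, was 30.6, 30.3 and 29.0 FPKM against 37.8, 31.6 and 35.7 FPKM (-0.22, limma adjusted p = 0.0483). All 3 sets of samples were without overlap, though by narrow margins. None of the 3 calls was stable. Etv5 missed the threshold without FAK KO replicate 1, 2 or 3 (adjusted p = 0.0599, 0.0708 and 0.0863). Spry2 missed it without FAK KO replicate 3 (0.166) or FAK-WT replicate 1, 2 or 3 (0.12, 0.0837 and 0.0611), and Spred1 without FAK KO replicate 1 or 3 (0.126 and 0.15) or FAK-WT replicate 1, 2 or 3 (0.0894, 0.11 and 0.094). With all samples kept, the 3 calls were also lost with no filter, median-of-ratios scaling, chromosomes centred and no trend (adjusted p from 0.0510 to 0.233). Spry2 was lost with the replicate block (0.0573) and voom (0.0539), and Spred1 with the block (0.0617) and all 5 lines in 1 fit (0.0537).

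Spry1 was also higher with the kinase-inactive protein. It was 9.84 and 10.6 FPKM in the 2 FAK-R454 samples, above all FAK KO samples (log2 fold change 0.85, standard error 0.11, limma adjusted p = 0.00172), and the call was made in all 15 alternatives at any fold, but not with a log2 fold change of at least 1 also required. Etv5 was 38.9 and 38.6 FPKM, lower than in FAK KO (-0.22, limma adjusted p = 0.0381). That call was lost without FAK KO replicate 3 (0.139) or either FAK-R454 sample, which leaves 1 in that line. With all samples kept, it was also lost with no filter (0.0531), median-of-ratios scaling (0.0682), chromosomes centred (0.0650) and no trend (0.0771). The same held for 1 fit of all 5 lines (0.131) and the replicate block (0.218). These 2 of the 10 genes were called, where 19.7% of all 11818 genes tested were called (9.78% higher, 9.89% lower). Again 0 of the 10 reached a log2 fold change of 1 (2.74% of all genes tested), and 5 did not overlap (55.1% of all). The median was 0.085 over the 10 genes and -0.028 over all genes tested. Of the marker genes, Pdgfra averaged 8.87 FPKM with FAK-R454 against 3.03 FPKM without, the mesothelial marker Upk3b 31.6 against 4.03, and the leukocyte sum was 4.24 to 4.34 against 2.85 to 3.18. Their part was not tested. Spred1, at 28.4 and 31.1 FPKM, had a log2 fold change of -0.23 (limma adjusted p = 0.1), which was called without FAK KO replicate 2 (-0.31, adjusted p = 0.0106).

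**Figure D3:**
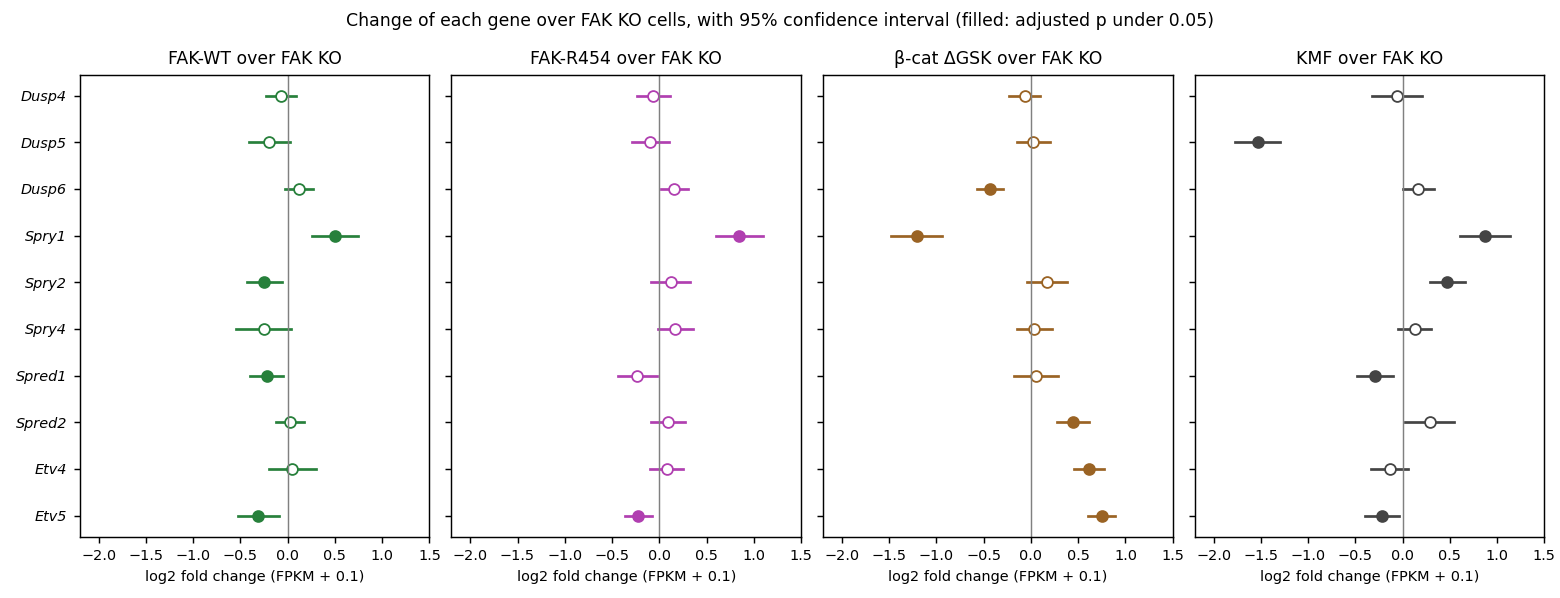
Log2 fold change on the FPKM + 0.1 scale (x axis) of each gene (rows) over FAK KO cells in FAK-WT, FAK-R454, β-catenin ΔGSK and KMF cells (panels). Lines are 95% confidence intervals from limma and filled circles are genes with an adjusted p under 0.05. Spry1 lies at 0.50, 0.85, -1.21 and 0.87, and Dusp5 at -1.54 in KMF cells.

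The direct comparison of FAK-WT with FAK-R454 cells asks what FAK catalytic activity adds. Of the 10 genes, Spry2 passed (1 lower), where 7.82% of all 11782 genes tested were called (3.38% higher, 4.44% lower) and 0 of the 10 against 1.44% of all reached a log2 fold change of 1. It was 10.4 and 10.9 FPKM in FAK-R454 and at most 8.45 FPKM in FAK-WT (log2 fold change -0.37, standard error 0.061, limma adjusted p = 0.0251). The call was lost without FAK-WT replicate 1 (adjusted p = 0.0751) or 2 (0.0908) and without FAK-R454 replicate 1 (0.183) or 2 (0.236), where the lone sample was assumed to vary like the other line. The other 2 Sprouty genes were lower in each FAK-WT sample than in either FAK-R454 sample, and 48.5% of all genes tested did not overlap. Spry1 had a log2 fold change of -0.35 (95% confidence interval -0.57 to -0.13, limma adjusted p = 0.0692) and Spry4 one of -0.42 (-0.79 to -0.058, limma adjusted p = 0.142). Both were called without FAK-WT replicate 3, with log2 fold changes of -0.41 (adjusted p = 0.00421) and -0.27 (0.0203). Under the replicate block, where that sample adds nothing to the difference, both were called too (adjusted p = 0.0022 and 0.0319). With 1 fit of all 5 lines Spry4 was called (-0.42, adjusted p = 0.0375). The summed FPKM of the 3 Sprouty genes was 21.2 ± 0.733 in FAK-WT (SD, n = 3), 21.3 ± 1.2 in FAK KO (n = 3) and 27.4 ± 0.807 in FAK-R454 cells (n = 2), and in KMF cells it was 30.5 ± 1.98 (n = 3).

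For Etv4 and Dusp6 the intervals of the difference between FAK-WT and FAK-R454 cells were -0.32 to 0.27 and -0.18 to 0.12 on the log2 scale (limma adjusted p = 0.908 and 0.761). For Etv5 the interval was -0.35 to 0.18 (0.638). The median over the 10 genes was -0.080, and -0.045 over all genes tested.

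Spry4 (ENSMUSG00000024427, chr18:38586268-38601268, minus strand) had the lowest mean of the 10 genes over the 14 samples, though Spry1 was lower in FAK KO and β-catenin ΔGSK cells. It was 5.37, 5.55 and 3.98 FPKM in FAK-WT, 5.71, 5.87 and 6.07 in FAK KO, 6.66 and 6.57 in FAK-R454, 6.29, 6.79 and 6.22 in KMF and 5.71, 6.12 and 6.26 FPKM in β-catenin ΔGSK cells. FAK-WT replicate 3 was the lowest of all samples. From FAK-R454 through KMF, β-catenin ΔGSK and FAK KO down to FAK-WT, no neighbouring lines differed past the threshold, while FAK-WT was lower than KMF (log2 difference -0.38, limma adjusted p = 0.0477). Other genes on chromosome 18 were also lower in FAK-WT than in FAK-R454 and FAK KO. Their median log2 fold change was -0.22 over FAK-R454 (293 genes) and -0.36 over FAK KO (294 genes), beside -0.42 and -0.25 for Spry4. This was not particular to FAK-WT, since the chromosome 18 median over FAK KO was -0.38 in KMF, -0.38 in β-catenin ΔGSK and -0.14 in FAK-R454 cells.

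Comparing KMF with FAK KO cells sets the parental population against 1 clone derived from it. Dusp5 (ENSMUSG00000034765, chr19:53529109-53542431, plus strand), the nuclear ERK phosphatase whose start carries the CArG boxes shown, was the gene that stood apart. It was 32.4, 32.8 and 26.1 FPKM in KMF and 79.3, 95.7 and 89.4 FPKM in FAK KO (log2 fold change -1.54, standard error 0.11, limma adjusted p = 9.16e-06). Each KMF sample was far below each FAK KO sample, and KMF had 0.345 times the FAK KO level. In none of the 3 lines made from KT13 was Dusp5 near the KMF level: it was 82.6, 79.9 and 68.5 FPKM in FAK-WT, 82.7 and 81.9 in FAK-R454 and 89.3, 87.4 and 91.1 FPKM in β-catenin ΔGSK cells. FAK-WT, the lowest of these lines, was still 1.34 above KMF on the log2 scale (standard error 0.11, limma adjusted p = 0.000147). Among the 4 lines that descend from the KT13 clone, no neighbours in the order of Dusp5 levels differed, though the highest, β-catenin ΔGSK, exceeded the lowest, FAK-WT (log2 difference 0.22, limma adjusted p = 0.0489).

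The median log2 fold change of the 438 other genes tested on chromosome 19 was -0.26 in KMF over FAK KO cells, against -0.045 over all genes tested, and with chromosomes centred the value of Dusp5 was still called (adjusted p at most 0.000136 over all 16 alternatives). Egr1, a serum response gene outside the 10, was 14.1, 15.3 and 15.2 FPKM in KMF and 5.15, 3.90 and 3.38 FPKM in FAK KO (log2 fold change 1.84, limma adjusted p = 1.49e-05), opposite in direction to Dusp5. Dusp5 made up 21.8% ± 0.118 of the summed FPKM of Dusp4, Dusp5 and Dusp6 in KMF and 44.9% ± 1.25 in FAK KO cells (SD, n = 3 each).

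Spry1 was 11.1, 11.2 and 8.99 FPKM in KMF, higher than in FAK KO (log2 fold change 0.87, standard error 0.12, limma adjusted p = 0.000377). Spry2 was also higher, at 14.3, 13.5 and 13.0 FPKM (0.47, standard error 0.081, limma adjusted p = 0.00161). Neither gene overlapped between the 2 lines, and both calls were made in all 16 alternatives at any fold, as was that of Dusp5, the 1 call left with a log2 fold change of at least 1 also required. Spred1 was lower, at 29.5, 29.6 and 26.6 FPKM (-0.29, limma adjusted p = 0.0175), a call lost without FAK KO replicate 1 (0.0522) or 3 (0.065). Etv5 was lower, at 40.4, 42.0 and 35.0 FPKM (-0.21, limma adjusted p = 0.0474), a call lost without KMF replicate 1 (0.0804) or 3 (0.0945) or FAK KO replicate 1, 2 or 3 (0.0601, 0.109 and 0.12). It was also lost with no trend (0.0741), no filter (0.0731), median-of-ratios scaling (0.108), 1 fit of all 5 lines (0.0552) and the replicate block (0.0649). KMF replicate 3 had the lowest value of its line in each of the 10 genes, and without it Dusp6 (0.23, adjusted p = 0.0135) and Spred2 (0.42, adjusted p = 0.00158) were called higher, while Dusp4 went from -0.057 to 0.079 and was not called. With all samples kept, Dusp6 and Spred2 were also called higher with 1 fit of all 5 lines (adjusted p = 0.0364 and 0.0218), median-of-ratios scaling (0.0480 and 0.0486) and chromosomes centred (0.0344 and 0.0334), and Spred2 with voom (0.0452). In all, 5 of the 10 genes were called (2 higher, 3 lower), where 51.8% of all 11893 genes tested were called (23.1% higher, 28.7% lower). Of the 10, 1 reached a log2 fold change of 1 in size (8.01% of all genes tested) and 7 did not overlap (60.8% of all). Their median was 0.035, and -0.045 over all genes tested.

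With chromosomes centred, 8 genes were called in KMF over FAK KO cells, Spry4 among them (0.53, adjusted p = 0.00205, from 0.13 and 0.184 as deposited), as the other 295 genes tested on chromosome 18 had a median of -0.38. As deposited, 51.8% of all genes tested were called. The share with chromosomes centred is not given here, so the 8 cannot be set against it. Fibroblast markers summed to 39.3 to 47.3 FPKM in KMF, below FAK KO, which followed Dcn, while Pdgfra went the other way, with 9.06 FPKM in KMF and 3.03 FPKM in FAK KO. Endothelial markers summed to 29.6 to 30.0 FPKM, above FAK KO, and most of it was Tek. Their part in these results was not tested.

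Over all 5 lines Spry1 had the widest range of the 10 genes, with means from 2.38 FPKM in β-catenin ΔGSK to 10.4 FPKM in KMF, a ratio of 4.38. KMF and FAK-R454 (10.2 FPKM) did not differ (log2 difference 0.027, limma adjusted p = 0.857). FAK-R454 and FAK-WT (7.99 FPKM) did not overlap and did not pass the test. FAK-WT exceeded FAK KO (5.65 FPKM), and FAK KO exceeded β-catenin ΔGSK. Relative to the other Sprouty genes, Spry1 made up 37.8% ± 3.31 of the summed Sprouty FPKM for FAK-WT and 12.3% ± 1.47 for β-catenin ΔGSK cells (SD, n = 3 per line), where Spry2 took 56.7% ± 2.87.

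Dusp5 came next with a ratio of 2.94, then Etv5 with 2.08, Etv4 with 1.68 and Spry2 with 1.66. Spry2 was highest in KMF, which exceeded β-catenin ΔGSK (11.0 FPKM, log2 difference 0.30, limma adjusted p = 0.0137). β-catenin ΔGSK, FAK-R454 and FAK KO followed without a difference between neighbours, and FAK KO exceeded FAK-WT. Dusp6 had a ratio of 1.52, and KMF (35.6 FPKM), FAK-R454 (35.2), FAK-WT (34.5) and FAK KO (31.6) showed no difference between neighbours above β-catenin ΔGSK (23.4). For Spred2 no neighbours in the order differed, from β-catenin ΔGSK (31.1 FPKM) through KMF (28.1), FAK-R454 (24.4) and FAK-WT (23.2) to FAK KO (22.8). Further apart in that order, β-catenin ΔGSK exceeded FAK-R454 (log2 difference 0.35, limma adjusted p = 0.0081), FAK-WT (0.42, 0.00096) and FAK KO (0.44, 0.00099). For Spred1, β-catenin ΔGSK (36.4 FPKM) and FAK KO (35.0) did not differ, nor did FAK-WT (30.0), FAK-R454 (29.7) and KMF (28.6).

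Dusp4 (ENSMUSG00000031530, chr8:34807297-34819894, plus strand), a nuclear phosphatase, had the highest mean of the 10 over the 14 samples, though Dusp5 was higher in each line but KMF, and the smallest ratio between lines. It was 80.5, 80.2 and 60.4 FPKM in KMF, 69.5, 80.5 and 78.6 in FAK KO, 72.5, 73.0 and 72.4 in FAK-WT, 71.9 and 73.6 in FAK-R454 and 75.7, 70.5 and 71.8 FPKM in β-catenin ΔGSK cells. The means had a ratio of 1.05, each line overlapped its neighbours, and no neighbours differed (limma adjusted p from 0.7 to 0.996).

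The genes whose profile over the 14 samples was most like that of each of the 10 were found among 12255 genes by Pearson r of log2(FPKM + 0.1), a description, since samples of a line move together. Sema3f was nearest to Spry1 (r = 0.99), with means of 61.1 FPKM in KMF and 25.2 FPKM in β-catenin ΔGSK cells. Pgap2 was nearest to Etv5 (r = 0.99), at 49.3 FPKM in β-catenin ΔGSK and 29.7 FPKM in FAK KO. Ramp2 was nearest to Dusp6 (r = 0.99), at 6.59 and 21.0 FPKM in those lines. Atp1b2 was nearest to Dusp5 (r = 0.98), at 2.25 FPKM in KMF and 13.9 FPKM in FAK KO. Vgll4 was nearest to Etv4 (r = 0.98), Trp53inp1 to Spred1 (0.96), Pim1 to Spred2 (0.95) and Crkl to Spry2 (0.93). The nearest gene was less alike for Spry4 (Rsu1, 0.85) and Dusp4 (Gm10357, 0.83). Second in likeness were Tsc22d3 for Spry1, Lsr for Etv5, Slc29a1 for Dusp6, Ptprv for Dusp5, Amhr2 for Etv4, Med13 for Spred1, Mesdc1 for Spred2, Gga2 for Spry2, 1010001N08Rik for Spry4 and Zbtb7a for Dusp4.

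Other genes of the pathway were read from 3 lists. The list of other ERK outputs held 19 genes, among them immediate early genes such as Fos and Egr1 that ERK induces through serum response factor and its ETS partners. When FAK was re-expressed, limma called 10 of its 17 tested genes higher than in FAK KO and 0 lower, with a median of 0.32 against -0.076 over all genes tested. The 10 included Fos (log2 fold change 0.93), Egr1 (0.80), Elk3 (0.73), Ier3 (0.70), Fosl1 (0.50), Myc (0.42) and Ccnd1 (0.37). Egr3 was also among them (1.09), but it averaged 0.878 FPKM in FAK KO and passed the filter only through FAK-WT (2.10 FPKM). At an unadjusted p under 0.05 there were 10 higher and 2 lower, and voom on recovered fragments called 10 and 0. Of all genes tested in this comparison 15.6% were called higher and 25.2% lower. Over the alternatives that call at any fold between 7 and 11 were called higher and between 0 and 2 lower, with 2 lower without FAK KO replicate 2. With a log2 fold change of at least 1 also required, 1 was left. It was Egr3, which the filter kept only because FAK-WT was high, so this count says nothing about the list. Egr3, an immediate early transcription factor, was 1.23, 1.87 and 3.22 FPKM in FAK-WT and at most 1.08 FPKM in FAK KO, a call lost without FAK KO replicate 1 (adjusted p = 0.0773) or 2 (0.0704) or FAK-WT replicate 2 (0.0553). Egr1 was 4.94, 6.90 and 10.8 FPKM in FAK-WT and overlapped FAK KO. Its log2 fold change was 0.51 without FAK-WT replicate 3 (adjusted p = 0.0717), and its call was also lost without FAK-WT replicate 2 (0.0712) or FAK KO replicate 2 (0.0929) or 3 (0.124).

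Against FAK-R454, limma called 6 of the 17 higher with FAK-WT and 0 lower (7 and 1 at an unadjusted p under 0.05, and 7 and 1 with voom): Fos (1.15), Ier3 (0.69), Fosl1 (0.63), Ccnd1 (0.48), Plaur (0.39) and Myc (0.37). With all samples, 3.38% of all genes tested were called higher. Without FAK-WT replicate 1 or 2 there were 3 and 2 outputs higher. Those fits called 334 and 157 of all genes in either direction, against 921 with all samples. Without FAK-WT replicate 3 there was 1 output called lower, where 3312 of all genes were called. Leaving out either FAK-R454 sample leaves 1 in that line, and the calls did not hold there. Fos was 4.02, 3.89 and 4.46 FPKM in FAK-WT and 1.73 and 1.87 FPKM in FAK-R454, without overlap. For FAK-R454 against FAK KO, limma called 4 higher and 0 lower (4 and 1 at an unadjusted p under 0.05, and 4 and 0 with voom), where 9.78% of all genes tested were called higher. Without FAK KO replicate 3 the number higher was 2, where 1178 of all genes were called, against 2325 with all samples. It also fell without either FAK-R454 sample, which leaves 1 in that line. There was 1 called lower without FAK KO replicate 1 or 2.

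In KMF over FAK KO cells 10 of the 17 were higher and 2 lower, the latter being Fosl1 (-0.32) and Plaur (-0.43), against 23.1% and 28.7% of all genes tested. The number lower was 1 without KMF replicate 2 and without FAK KO replicate 2 or 3. In β-catenin ΔGSK over FAK KO cells 4 of 16 were higher and 7 lower, against 23.7% and 34.4% of all genes tested. Fos, at 6.77, 8.07 and 5.71 FPKM against at most 2.44 FPKM in FAK KO, rose (1.64, limma adjusted p = 7.75e-05), and so did the ETS factor gene Ets2 (1.03, limma adjusted p = 2.48e-06). Elk3 (-0.83), Epha4 (-0.99) and Egr1 (-0.49) were lower, the last not called without β-catenin ΔGSK replicate 3 (adjusted p = 0.0790) or FAK KO replicate 1 (-0.33, 0.0724). The median over the outputs was -0.16, and -0.089 over all genes tested.

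**Figure D4:**
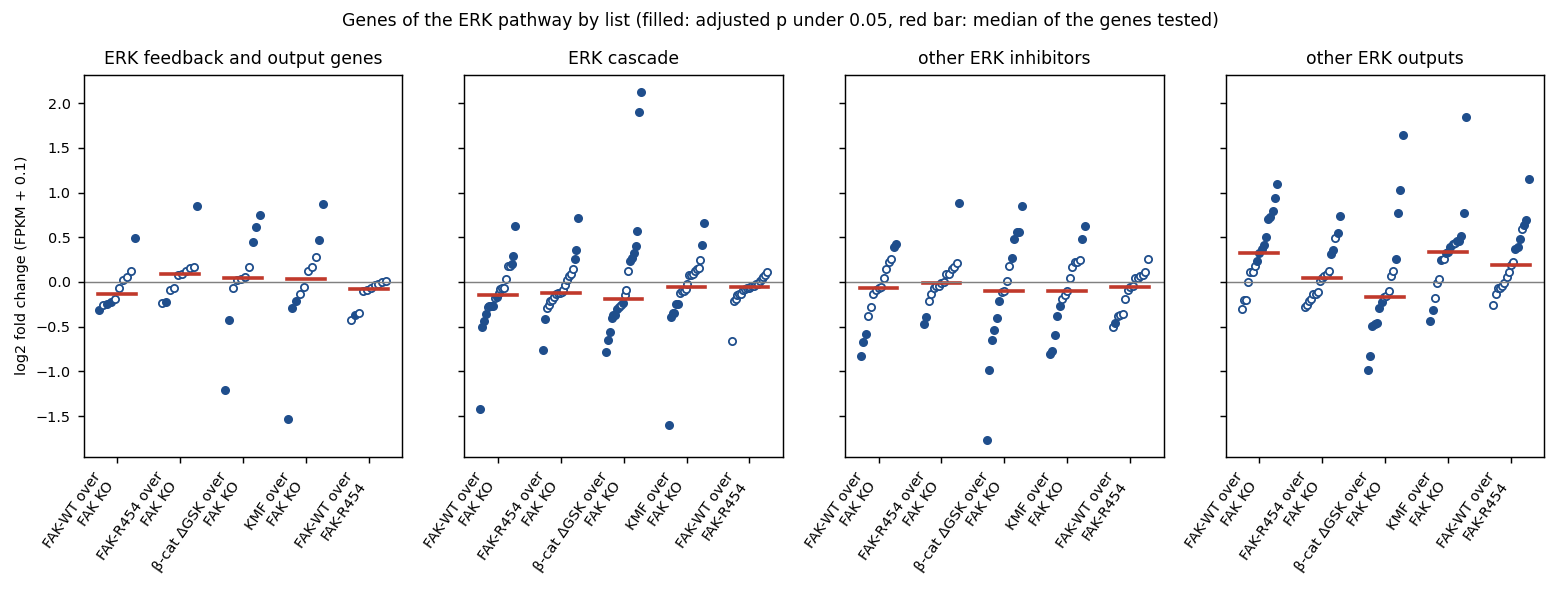
Log2 fold change on the FPKM + 0.1 scale (y axis) of each tested gene of the 10 and of the 3 other lists (panels) in 5 comparisons (x axis). Points are genes, filled where the adjusted p was under 0.05, and red bars are medians. The other ERK outputs have a median of 0.32 for FAK-WT over FAK KO, where the 10 genes have one of -0.13.

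The list of the ERK cascade held 20 adaptors, Ras and Raf proteins, MEK, ERK and RSK kinases, each tested in all comparisons. In β-catenin ΔGSK over FAK KO cells 7 were higher and 9 lower, where 23.7% and 34.4% of all genes tested were. Rps6ka2, which encodes an RSK kinase that ERK activates, was 23.3, 25.2 and 30.0 FPKM against 5.79, 5.97 and 5.90 FPKM in FAK KO (log2 fold change 2.13, limma adjusted p = 5.3e-07). Ksr1, a scaffold that holds Raf, MEK and ERK together, rose as well (1.90, limma adjusted p = 1.49e-06). Among the genes called lower were Araf (-0.79) and Map2k1 (-0.65).

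Rps6ka2 went the other way in FAK-WT (-1.43), KMF (-1.60) and FAK-R454 cells (-0.77, limma adjusted p = 0.00107). In FAK-WT and KMF cells it was 2.16 ± 0.419 and 1.89 ± 0.276 FPKM (SD, n = 3 each). Against FAK KO, 3 of the 20 were higher and 8 lower with FAK-WT, 3 and 2 with FAK-R454, and 2 and 6 in KMF cells. Over all genes tested the shares were 15.6% and 25.2%, 9.78% and 9.89%, and 23.1% and 28.7%. Between FAK-WT and FAK-R454 limma called 0 of the 20 in either direction, with 0 higher and 3 lower at an unadjusted p under 0.05, where 3.38% of all genes tested were called higher and 4.44% lower.

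Of 18 genes listed as other inhibitors 17 were in the table and 15 were tested. The list includes phosphatases, among them Dusp8, Dusp10 and Dusp16, that act mainly on kinases other than ERK, so its counts are not of ERK inhibitors alone. In β-catenin ΔGSK over FAK KO cells 5 were higher and 6 lower, of 15 tested, beside the same shares of all genes as for the cascade. Lrig1, which encodes a membrane inhibitor of ErbB receptors, was 5.42, 6.10 and 5.44 FPKM against 19.0, 20.3 and 18.9 FPKM in FAK KO (log2 fold change -1.76, limma adjusted p = 4.51e-07). Like Spry1, Lrig1 was higher than in FAK KO in FAK-R454 (0.89) and KMF (0.62) and, with a smaller value, in FAK-WT cells (0.39, limma adjusted p = 0.0473). In FAK-WT it was 22.6, 22.4 and 32.4 FPKM, with a log2 fold change of 0.21 without replicate 3 (adjusted p = 0.0352), and the call was lost without FAK KO replicate 1, 2 or 3 (0.126, 0.0718 and 0.125). Dusp1, an inducible nuclear phosphatase, rose in β-catenin ΔGSK cells (0.85, limma adjusted p = 0.000372). Against FAK KO, 2 were higher and 3 lower with FAK-WT, 1 and 2 with FAK-R454, and 2 and 5 in KMF cells, beside the shares of all genes given for the cascade. Among the 5 lower in KMF was Il17rd, which averaged 0.711 FPKM there and passed the filter only through FAK KO (1.32 FPKM). Between FAK-WT and FAK-R454 limma called 0 higher (0 also at an unadjusted p under 0.05, where 4 were lower) and 1 lower, against 3.38% and 4.44% of all genes tested, the 1 being Dusp16 (-0.46, limma adjusted p = 0.0363), a call lost without FAK-R454 replicate 1 (0.260) or 2 (0.213) or FAK-WT replicate 1 (0.0682) or 2 (0.107).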

How the data were processed

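RNA of the 14 samples had been poly(A) selected, made into libraries that do not mark strand and sequenced as paired ends. The authors deposited FPKM per gene, with coordinates and gene lengths. Their methods name TopHat2 for mapping, while the submitters' processing notes list STAR 2.5, CASAVA 1.8, DESeq2 and mm10. The counter and annotation are not given in the sources used here. FPKM divides by gene length and library total, so a few very abundant genes can shift all others (the top 20 genes held 5.88 to 6.83%). Multiplied by gene length, FPKM gave whole fragments (within 0.01) for 100% of values, which shows each library's depth.

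Values were compared with limma 3.58.1 in R 4.3.3 (lmFit, eBayes with trend) on log2(FPKM + 0.1), with the samples of the 2 lines, genes with mean FPKM above 1 in at least 1 line and Benjamini-Hochberg adjustment over them. The fit was run on simulated data with the same spread set for every gene, which does not test it at the unequal spreads between samples seen here. Figures and tables used Python 3.11.15 with matplotlib 3.10.9. The alternatives were pseudocounts of 1 and 0.01, no filter and a minimum of 5 FPKM, median-of-ratios scaling, chromosome centring, no trend, 1 fit of all 5 lines, a replicate block, voom on recovered fragments, a fold threshold and leaving out each sample. Those for the list of other outputs, and leaving out samples for single listed genes, were chosen after seeing the data.

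The genes and lists were chosen with earlier results of these data known. The genes named are the 10, the listed genes called with a log2 fold change of at least 1 in size in any comparison over FAK KO, the 2 genes most alike each of the 10, Ptk2 and Ctnnb1. Other listed genes and the CArG box and GGAA were picked after their values or sequences were seen. Labels give a replicate number, and the methods describe independent RNA samples of KMF cells from various passages. For the other lines p-values measure the spread between these samples, which may be technical. The methods describe 3 samples per line, and 1 more FAK-R454 sample was not analysed here.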

Additional observations from a re-analysis of the deposited data

Results flagged for a closer look

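FAK-WT and FAK-R454 were both compared with FAK KO cells, and for 1 of the 10 genes the direct test found that these effects differ, where 7.82% of all genes tested were called. The log2 fold change of Spry2 between FAK-WT and FAK-R454 was -0.37 (limma adjusted p = 0.0251), with 3 of 3 FAK-WT samples below both FAK-R454 samples. Relative to FAK KO its log2 fold change was -0.25 in FAK-WT and 0.12 in FAK-R454 cells. With 3 samples or fewer per line, single samples that stand apart were not tested for. The call was lost in 4 of 5 cases of leaving out 1 sample (adjusted p up to 0.236) and with chromosomes centred (adjusted p = 0.0541).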

How the results depend on the processing

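Of 780 alternative values for the 10 genes in 5 comparisons, 679 kept their direction and their side of the threshold, 54 lost the call, 20 gained it and 27 turned sign, none of these (0) among values that had been called. A threshold of at least 1 on the log2 fold change left 0 of the 10 genes called for FAK-WT over FAK KO, 0 for FAK-R454 over FAK KO, 1 for β-catenin ΔGSK over FAK KO, 1 for KMF over FAK KO and 0 for FAK-WT over FAK-R454. It left 547, 324, 1444, 953 and 170 of all genes tested, from 4837, 2325, 6928, 6161 and 921. For FAK-WT over FAK KO, where 4 were called, there was 1 with no filter, 1 with chromosomes centred, 1 with no trend and 2 with median-of-ratios scaling. For FAK-R454 over FAK KO, where 2 were called, there was 1 under each of those settings and 1 with all 5 lines in 1 fit. KMF over FAK KO had 8 with chromosomes centred, a setting for which the count of all genes is not given here. FAK-WT over FAK-R454 had 0 with chromosomes centred and 2 with all 5 lines in 1 fit. With no filter 1526 of all genes were called for FAK-R454 over FAK KO and 581 for FAK-WT over FAK-R454, which had 517 with chromosomes centred. Voom on recovered fragments called 4953, 2769, 6987, 6243 and 1096 of all genes in the order above. The cause was not tested.

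Leaving out 1 sample at a time gave 1 to 3 of the 10 genes called for FAK-WT over FAK KO, 1 to 3 for FAK-R454 over FAK KO, 5 to 5 for β-catenin ΔGSK over FAK KO, 3 to 6 for KMF over FAK KO and 0 to 3 for FAK-WT over FAK-R454. All genes called ranged from 2727 to 5165, 548 to 4390, 5670 to 7297, 4746 to 6257 and 7 to 3312. Log2 fold changes that turned sign were small. They ranged from -0.024 to 0.055 for Spred2 and -0.015 to 0.18 for Etv4 in FAK-WT over FAK KO, from -0.052 to 0.084 for Dusp5 and -0.043 to 0.11 for Spred1 in β-catenin ΔGSK over FAK KO, and from -0.13 to 0.079 for Dusp4 in KMF over FAK KO. In FAK-WT over FAK-R454 they ranged from -0.053 to 0.079 for Spred1, -0.019 to 0.014 for Dusp4, -0.058 to 0.016 for Dusp6, -0.092 to 0.099 for Etv4 and -0.15 to 0.022 for Etv5. With median-of-ratios scaling Dusp4 became 0.0086 in FAK-WT over FAK KO, 0.017 in β-catenin ΔGSK over FAK KO and 0.046 in FAK-WT over FAK-R454, where Dusp6 became 0.016 and Etv4 0.022. With chromosomes centred Spred2 became -0.024 in FAK-WT over FAK KO, and Etv4 became -0.0029 in FAK-R454 over FAK KO and 0.0073 in FAK-WT over FAK-R454. Median-of-ratios scaling moved the share of higher calls among all called genes from 38.3% to 54.4% for FAK-WT over FAK KO, from 40.8% to 50.8% for β-catenin ΔGSK over FAK KO, from 43.2% to 58.9% for FAK-WT over FAK-R454, from 49.7% to 56.2% for FAK-R454 over FAK KO and from 44.6% to 50.4% for KMF over FAK KO.

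The lines share replicate numbers, and the labels do not say whether these numbers pair the samples. For β-catenin ΔGSK and FAK KO the deviations of same-numbered samples correlated with r = 0.445, 0.280 and 0.0759. With other numbers r was at most 0.0221, -0.119 and 0.292. For the other comparisons the mean over same-numbered samples was between -0.104 and 0.0042. With a replicate block Spry2 was called for β-catenin ΔGSK over FAK KO (adjusted p = 0.0495), and 2 of the 10 genes were called for FAK-WT over FAK KO, 1 for FAK-R454 over FAK KO and 3 for FAK-WT over FAK-R454, where all genes called rose to 3393 and Dusp4 became 0.00033, Dusp6 0.016, Etv4 0.099 and Etv5 0.022. FAK-R454 has no replicate 3, so under the block replicate 3 of the other line adds nothing to the difference, and leaving out FAK-WT replicate 3 without a block gave these same 4 values, 3 of the 10 genes and 3312 of all genes called. Over the 14 samples Spry1 reached the fewest fragments, with 173 to 928 per sample, and 173 to 190 in β-catenin ΔGSK cells. In FAK-WT cells Spry2 had fewer than Spry1 (473 to 540 against 595 to 757), as it had in FAK-R454 cells (600 to 718 against 758 to 928).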
